A study of Caenorhabditis elegans with 51 samples.

Results

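The sperm genes described here are the Caenorhabditis elegans genes whose WormBase symbols begin with msp-, ssp-, sss-, msd-, nspd- or spe- followed by a number, together with gsp-3 and gsp-4. By symbol there were 89 such gene IDs, and 87 of them stood among the 44200 gene IDs of the count tables. The families held 31 msp, 29 spe, 12 ssp, 10 nspd, 4 msd, 2 gsp and 1 sss gene IDs, and msp-58 and spe-5 were not analysed here. Of the 87, 9 were listed at 0 in all 35 RNA libraries (7 msp genes and both gene IDs of msd-1). A filter on low counts left 72 for testing in the time course, with 18 msp, 28 spe, 12 ssp, 9 nspd, 2 msd, 2 gsp and 1 sss genes. The msp genes are near-identical copies, and the sources used here do not say how reads that match several copies were counted, so the level of a single msp gene is uncertain.

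RNA of whole animals was counted per gene in 5 experiments on XRN2, the nuclear 5′-3′ exoribonuclease that acts in transcription termination. The time course compared wild type (WT, strain N2) with HW1660, which carries the temperature-sensitive allele xrn-2(xe31). Animals of both strains grew for 59 h at 15 °C, were moved to 26 °C and were sampled each hour from 0 to 10 h, with 1 library per strain and hour (11 and 11). RNA of the 6 h and 10 h animals was also sequenced again more deeply (2 and 2 libraries). A second strain, HW2216, carries a GFP-tagged transgene of catalytic-dead XRN2, xrn-2(D234/236A)::gfp, in the xe31 background, so that its animals have both the mutant allele and the transgene. Libraries of this strain and of a WT grown with it were made at 6 h and at 10 h (2 and 2). In the RNAi experiments, worms of strain N2 (WT) were kept at 20 °C. They ate bacteria for xrn-2 RNAi or a mock control between the L1 and mid-L4 stages, with no mutant background named in the labels. One set of these libraries was depleted of rRNA (1 mock and 2 RNAi) and the other selected for polyA (1 and 1). Gene counts per library came to 41238235 to 57832479 in the time course, 239213652 to 253142688 in the resequenced libraries, 49628394 to 74356542 in the catalytic-dead experiment, 21695913 to 23817072 after rRNA depletion, and 36463650 and 44605077 in the polyA pair. The xrn-2 transcript stood at 201.0 to 254.5 CPM (counts scaled to a common library size) in late xe31 libraries against 107.9 to 119.03 in WT, at 425.1 to 503.6 in the catalytic-dead strain against 110.4 to 124.6, at 65.8 and 72.8 in the rRNA-depleted RNAi libraries against 79.9, and at 79.5 in the polyA RNAi library against 132.2.

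Hermaphrodites of C. elegans make sperm before they make oocytes, and the germ line switches from the first to the second around the end of larval growth. Transcription stops late in meiosis, so the messages for sperm function are made in spermatocytes and the mature sperm transcribes nothing. Major sperm protein, encoded by the msp genes, builds the filaments that drive the amoeboid crawling of the sperm and is also released as a signal for oocyte maturation. The spe genes were named from mutants with defective spermatogenesis or fertilisation and encode unrelated proteins, among them kinases, membrane proteins and a transcription factor. The phosphatases GSP-3 and GSP-4 act in sperm meiosis and motility. In the RefSeq gene order of assembly WBcel235, 16 of the 87 matched genes lay next to another of the sperm genes, 13 of them among the 31 msp genes and none among the 29 spe genes.

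In WT, the sperm genes rose together after the shift to 26 °C. From the early (0 to 2 h) to the late hours (6 to 10 h) 70 of the 72 genes rose and none fell, with a median log2 change of 5.40, or 5.05 with genes at 0 in the early hours set at the floor of 3 counts over the group. Over all genes tested, 30.1% rose and 29.9% fell, with a median of -0.03. All 18 msp genes rose (median 6.33), as did all 12 ssp genes (6.81), all 9 nspd genes (5.83), both msd genes (6.67), both gsp genes (4.64) and 26 of the 28 spe genes (3.26). The spe genes that did not pass were spe-44, which had risen and fallen again by the late hours, and spe-48. These are RNA levels of whole animals, in which more sperm-making cells and more RNA per cell cannot be told apart.

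The msp genes began near 0 and climbed through most of the course. Their summed level in WT was 0.859 CPM at 0 h, then 1.92, 4.90, 13.9, 36.6, 74.5, 112.8, 157.4, 184.3 and 232.2 CPM at 1 to 9 h, and 210.6 CPM at 10 h. The highest value was 270.3 times the value at 0 h. The highest-counted copy, msp-50, went from 0.262 CPM at 0 h to 64.9 CPM at 9 h, and the lowest-counted copy that passed the filter, msp-59, from 0 to 0.362 CPM.

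The summed spe level was already well above 0 at the shift and levelled off sooner. At 0 h much of that sum came from spe-39 (36.9 CPM) and spe-48 (34.5 CPM), while other spe genes began near 0. Among these were spe-8 (0.0954 CPM), spe-12 (0.0954 CPM) and spe-54 (0.119 CPM), which reached 276.6, 98.6 and 357.0 times their 0 h values. Their sum in WT was 131.4, 164.2, 212.1, 353.3, 552.9, 758.5, 910.0, 999.9, 1015, 943.3 and 823.4 CPM at 0 to 10 h, a rise of 7.72-fold from 0 h to the highest value at 8 h. Per kb of gene span, introns included, the median level in WT at 8 h was 8.15 CPM for 28 spe genes (1.04 to 111.0) and 6.78 CPM for 22 msp genes (0 to 114.3), so the families overlapped over their whole range. On the same scale gsp-3 and gsp-4 stood at a median of 106.0 CPM per kb and 9 nspd genes at 163.4.

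**Figure D1:**
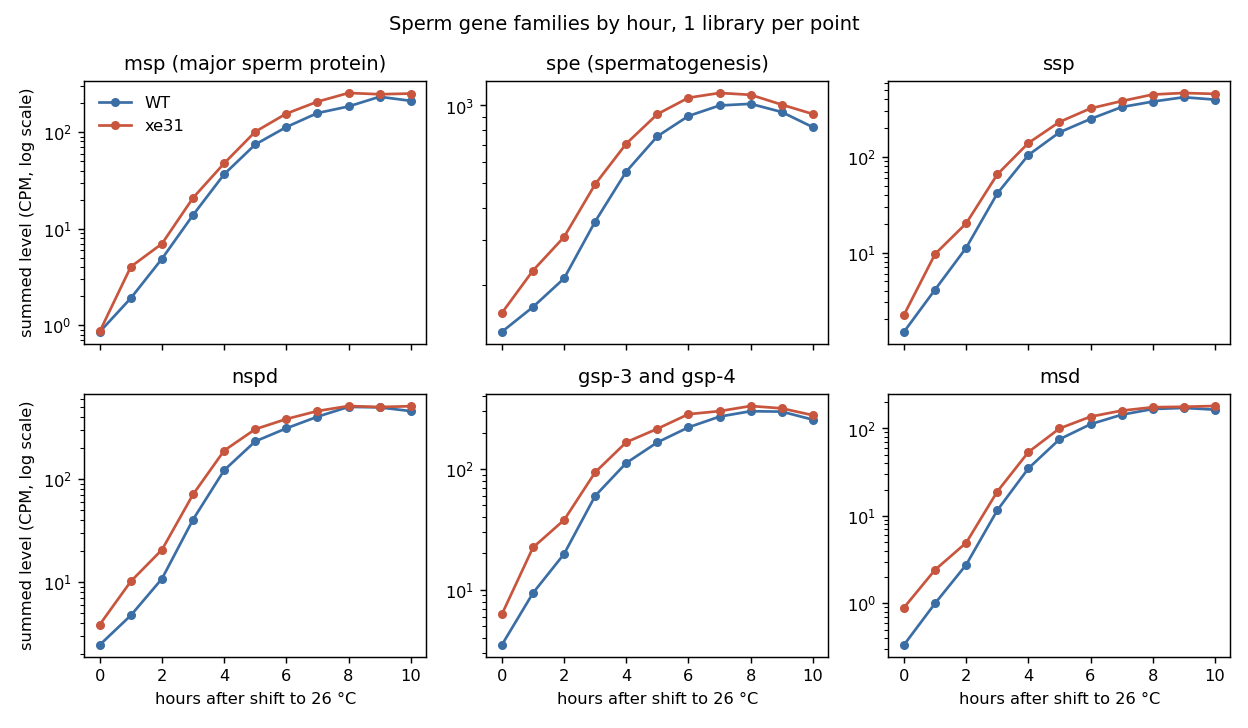
Summed level of 6 sperm gene families (CPM, log axis) at each hour after the shift to 26 °C, with 1 library per point, WT in blue and xe31 in red. Every family climbs in both strains, the spe sum over a much smaller range than the msp sum (7.72-fold against 270.3-fold in WT), and the red points lie above the blue ones in all 11 hours of each of these families. The spe sum includes spe-39 and spe-48, which were high from 0 h.

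The order in which the families rose differed, with most spe genes ahead of most msp genes. The midpoint hour, at which a gene first crossed the midpoint between 0 and its highest WT level, had a median of 3.79 h over 28 spe genes (0 to 6.32 h), 5.15 h over the nspd genes, 5.89 h over the ssp genes and 6.27 h over 15 msp genes with at least 20 counts per library (4.56 to 8.10 h). Of the 15 msp genes 13 peaked at 9 or 10 h, against 6 of the 28 spe genes, of which 21 peaked at 5 to 8 h. From the middle (3 to 5 h) to the late hours 16 of 18 msp genes rose (median log2 2.47) and 9 of 28 spe genes (0.64), where 19.5% of all genes rose. At 10 h the msp genes still stood at a median of 88.1% of their highest level and the spe genes at 66.3%. The families share the same libraries and overlap in these hours, so the medians are descriptions.

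Among the spe genes that rose and fell again, the earliest peak hour was that of spe-44, which encodes a SAND-domain transcription factor of the spermatogenesis programme. In WT it stood at 10.7, 18.2, 28.2, 48.1, 65.4, 68.9, 58.5, 40.4, 26.2, 19.8 and 17.5 CPM at 0 to 10 h. It therefore peaked at 5 h and was back near its 1 h level by the end. The message of spe-42 first crossed its midpoint sooner, at 0.34 h, since it already stood at 6.39 CPM at 0 h. It then fell to 3.50 CPM at 2 h, was above the midpoint again at 4 h (8.39 CPM) and peaked at 6 h at 13 CPM. The presenilin-family protein gene spe-4, the casein kinase 1 gene spe-6 and the EGF-repeat gene spe-9, needed at fertilisation, followed, with midpoints of 3.21, 3.35 and 3.38 h and peaks at 6, 6 and 7 h. The gene for TRPC channel SPE-41 had its midpoint at 3.41 h and that of the kelch protein SPE-26 at 4.68 h. At the late end lay spe-11, the paternally supplied factor of the early embryo, at 5.49 h, spe-54 at 6.31 h and spe-12, which acts in sperm activation, at 6.32 h. The midpoints of gsp-3 and gsp-4 were 4.67 and 4.75 h. The vesicle-trafficking gene spe-39 and spe-48 followed a different course. The message of spe-39 stood at 34.6 to 42.5 CPM up to 6 h and reached 70.9 CPM at 10 h, and spe-48 stayed between 28.5 and 34.5 CPM.

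**Figure D2:**
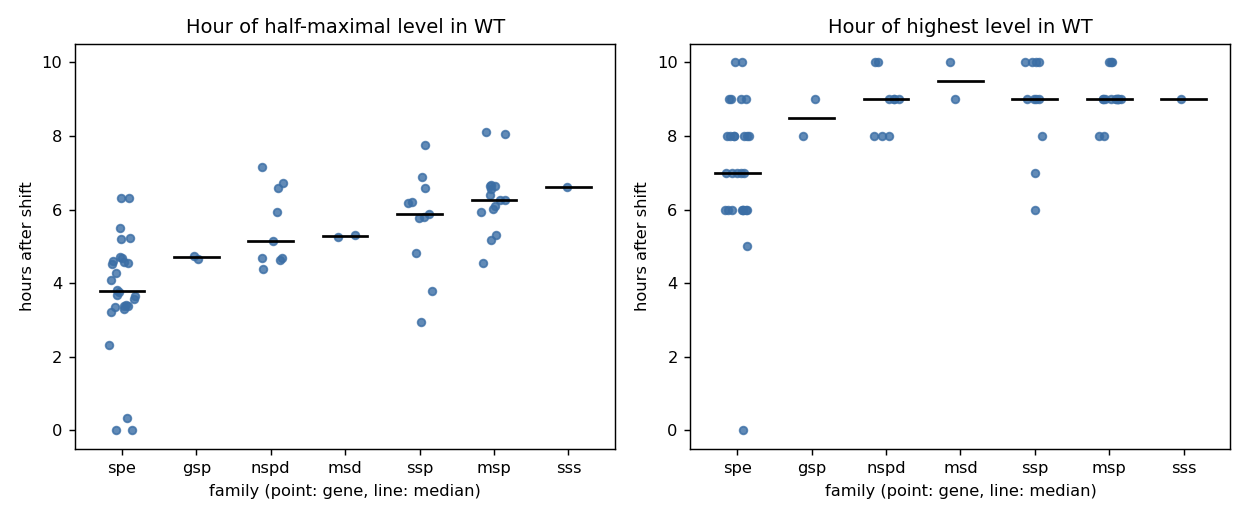
Left, the hour at which each gene first crossed the midpoint between 0 and its highest level in WT; right, the hour of its highest WT level, by family, with 1 point per gene and a line at the family median. Most spe points lie below the msp points, with medians of 3.79 and 6.27 h, and 13 of 15 msp genes peak at 9 or 10 h.

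Genes outside the sperm families followed the same courses closely. Over the 22 time-course libraries, the log2 levels most like the msp sum among 10728 genes were those of K06A5.2 (Pearson r 0.999), gipc-2 (0.999), F27C1.1 (0.998), F49C12.15 (0.998) and F21H7.5 (0.998). Those most like the spe sum were R10F2.6 (0.998), jmjd-1.1 (0.997), C06A1.3 (0.997), gldi-10 (0.997) and C26B2.2 (0.997). The points share libraries and hours, and these values are given as a description. Among 14 other sperm protein genes, which include the ferlin gene fer-1 and the msrp genes, 13 rose from early to late in WT and 1 fell. Oocyte markers also rose, 10 of 10 with a median log2 of 3.95, while 6 of 8 somatic markers fell and none rose.

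The sperm genes also rose together in xe31. From early to late hours 69 of 72 sperm genes rose in xe31 and 1 fell, with a median log2 change of 4.97, where 29.9% of all genes rose and 30.5% fell. The gene that fell was spe-48. Its call was lost without 0, 1, 7, 8 or 9 h (log2 -0.19 to -0.14) and with DESeq2 (-0.11). The summed msp level in xe31 was 0.868, 4.05, 7.01, 20.9, 47.5, 100.9, 155.4, 206.4, 254.0, 246.4 and 250.6 CPM at 0 to 10 h. The summed spe level was 155.6, 227.7, 307.6, 493.7, 710.1, 925.2, 1072, 1119, 1100, 1008 and 926.3 CPM. Both sums exceeded the WT sum in all 11 hours, as did those of the ssp, gsp, msd and nspd genes, and sss-1 did so in 10 of 11. At 0 h the msp sums were nearly equal, and 7 of 15 msp and 5 of 11 ssp genes were higher in xe31, against 21 of 28 spe genes.

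In the early hours, 32 of 72 sperm genes were higher in xe31 than in WT and none was lower, where 6.67% of all genes were called higher and 1.02% lower. The median log2 difference was 0.92, against 0.01 over all genes, and 66 of the 72 values were positive. The phosphatase gene gsp-3 stood at 2.03, 5.14 and 11 CPM in WT at 0, 1 and 2 h and at 3.57, 11.8 and 20.5 CPM in xe31. Its log2 difference was 0.98 ± 0.09 (SE, 3 hours, edgeR adjusted p = 6.4e-05), and it was higher in 3 of 3 hours. The activation kinase gene spe-8 stood at 0.0954, 0.486 and 1.47 CPM against 0.328, 1.43 and 3.27 CPM (log2 1.34 ± 0.17). For spe-11 the values were 0.429, 1.18 and 2.63 CPM against 0.751, 2.88 and 5.89 CPM (1.15 ± 0.14). The xe31 value exceeded the WT value of the same hour for each of these genes, while the ranges over the hours overlapped because the genes were climbing.

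The early calls lay mainly among spe genes. Of 28 spe genes 19 were higher (median log2 0.99, 28 positive), with spe-43, which acts in sperm activation, showing the widest difference at 1.65 ± 0.27 and the myosin VI gene spe-15 one of the narrowest at 0.56 ± 0.06. The transcription factor gene spe-44 was also higher, at 17.2, 29.7 and 41 CPM against 10.7, 18.2 and 28.2 CPM (log2 0.64 ± 0.07, edgeR adjusted p = 0.00019). Of 12 ssp genes 5 were higher, of 9 nspd genes 4 (nspd-1 by 1.27 ± 0.15), and both gsp genes, sss-1 and msd-4 (1.06 ± 0.13) as well. The ssp-33 message had the widest called log2 difference, 2.58 ± 0.36, at no more than 0.129 CPM in WT and 0.534 CPM in xe31. None of the 18 msp genes was called. Their median was 0.67 with 15 of 18 positive, 3 were higher at an unadjusted p under 0.05, and DESeq2 also called 0. Over all 17123 genes tested, 2117 were higher at that unadjusted p, and DESeq2 called 1198 higher. The early msp levels were low, with a family sum of at most 4.90 CPM in WT, and the absence of calls does not show that the strains were alike.

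The count depended on how the hours were matched. Without the 2 h libraries, 21 genes were called higher. Without hour as a block 0 were called. Against WT of 1 hour later, 1 sperm gene was called higher and 7 lower, with a median of -0.33. In the single hours the calls of spe-10 were lost without 1 or 2 h (log2 0.73 and 1.21), that of spe-4 without 2 h (0.39), and those of spe-38 and sss-1 without any of the 3 hours (0.97 to 1.03, and 0.74 to 1.13). Among the other lists, 8 of 14 other sperm protein genes were higher early (median 0.84), as were 3 of 15 regulators of sperm fate and spermatogenesis, namely the spermatogenesis Argonautes alg-3 (0.98 ± 0.09) and alg-4 (1.15 ± 0.10) and the CPEB-family gene cpb-1 (0.26 ± 0.05). Of 10 oocyte markers 1 was called (perm-4, 0.82 ± 0.18), of 8 germline markers none, and of 8 somatic markers 1 was lower.

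The lead of xe31 in time was measured for each gene as the shift of the hours that made its xe31 course fit its WT course best. It was positive, with xe31 ahead, for 64 of 67 sperm genes, with a median of 0.6 h and quartiles of 0.5 and 0.75 h. Over all 10088 genes measured this way the median was 0.4 h (quartiles 0.2 and 0.6 h), with 8591 positive. The spe genes had a median of 0.8 h (27 genes, -0.9 to 2.1 h) and the msp genes 0.6 h (15 genes, 0.4 to 1.3 h), with overlapping ranges. For the summed levels the shift was 0.8 h for spe and 0.5 h for msp genes. Single genes ranged from 0.4 h for msp-50, spe-42 and ssp-10 through 0.7 h for gsp-3 and gsp-4 to 1.2 h for spe-9. The shift was 0 for spe-36 and ssp-32 and negative, -0.9 h, for spe-39.

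The midpoint hours moved in the same way. The msp sum crossed its midpoint at 6.07 h in WT and 5.48 h in xe31, the spe sum at 3.77 and 3.30 h, the ssp sum at 5.43 and 5.01 h, the nspd sum at 5.24 and 4.58 h, and the gsp sum at 4.71 and 3.99 h. Each was earlier in xe31, and the msp sum still came after the spe sum in both strains. The spe-44 message peaked at 4 h in xe31 (70.1 CPM) and at 5 h in WT (68.9 CPM), and at 10 h it stood at 14.6 and 17.5 CPM.

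**Figure D3:**
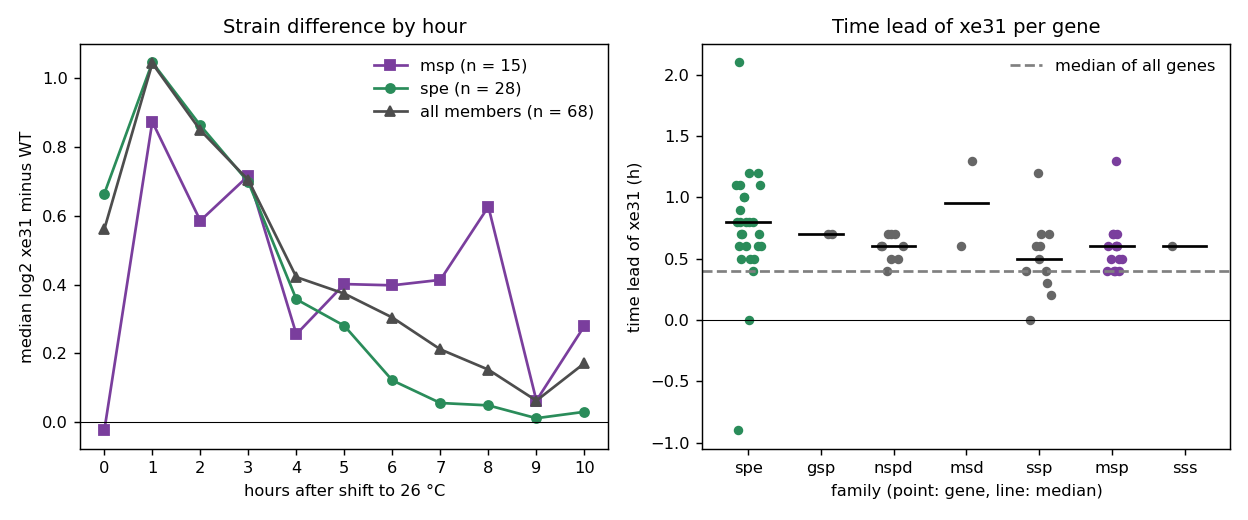
Left, the median log2 difference between xe31 and WT at each hour for 15 msp genes, 28 spe genes and 68 sperm genes in all, with 1 library per strain and hour; right, the shift in hours by which xe31 led WT for each gene, by family, with the median of all genes as a dashed line. The median difference of all sperm genes falls from 1.04 at 1 h to 0.06 at 9 h, and most points on the right lie above 0.

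The strain difference narrowed with the hours. Over 68 sperm genes its median log2 value was 0.56, 1.04, 0.85, 0.70, 0.42, 0.37, 0.30, 0.21, 0.15, 0.06 and 0.17 at 0 to 10 h. For the spe genes it dropped from 1.05 at 1 h to 0.03 at 10 h, where 14 of 28 were higher in xe31. For the msp genes it was -0.02 at 0 h, 0.87 at 1 h, between 0.26 and 0.72 from 2 to 8 h, 0.06 at 9 h and 0.28 at 10 h, where 13 of 15 were higher. A direct test of the late against the early strain effect called 28 of 72 sperm genes lower late and 0 higher (13.3% and 5.71% of all genes), with a median of -0.70. They comprised 17 of 28 spe genes (median -0.83), 5 of 12 ssp genes, 3 of 9 nspd genes, both gsp genes and msd-4. None of the 18 msp genes was called (median -0.42), 0 lay under an unadjusted p of 0.05, and DESeq2 called 0.

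In the middle hours 36 of 72 sperm genes were higher in xe31 and none was lower, where 10.1% of all genes were higher and 5.41% lower. The median log2 difference was 0.49. The calls took in 17 of 28 spe genes (median 0.45), 7 of 12 ssp genes, 5 of 9 nspd genes and 3 of 18 msp genes (median 0.49). Among the msp genes the widest called difference was that of msp-142, at 2.51, 6.41 and 13.6 CPM in WT and 4.15, 11 and 19 CPM in xe31 at 3, 4 and 5 h. Its log2 difference was 0.65 ± 0.13 (edgeR adjusted p = 0.008), and without 4 h it was 0.58 and no longer called. Among spe genes spe-54 had the widest called difference, 1.06 ± 0.14, while spe-44, by then at its peak in both strains, stood at 0.11 and was not called. The call of ssp-37 (1.39 ± 0.39) was lost without 3, 4 or 5 h (1.31 to 3.27). The number of sperm genes called was 23 without 3 h or without 4 h, and 0 without hour as a block. Against WT of 1 hour later 0 were called higher and 1 lower, with a median of -0.28.

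In the late hours of the time course the calls included msp and ssp genes. Of 18 msp genes 8 were higher and none lower (median log2 0.39), of 12 ssp genes 6 (0.29), of 9 nspd genes 3 (0.26), and of 28 spe genes 5 were higher and 2 lower (0.07). The families were not tested against each other, and the deeper sequencing described further on gave msp and spe genes nearly the same median at 10 h. Together this made 26 higher and 2 lower of 72, a share to be read against 17.3% and 20.8% of all genes. The msp-38 copy stood at 2.65, 3.43, 4.82, 6.32 and 5.87 CPM in WT at 6 to 10 h and at 3.61, 7.54, 11.6, 12.4 and 13.5 CPM in xe31. It was higher in 5 of 5 hours, by a log2 difference of 1.02 ± 0.14 (edgeR adjusted p = 0.00025). By contrast msp-50 differed by 0.28 and was called without 9 h (0.38) but not with it. The wider difference of msp-59 (1.09 ± 0.35) rested on less than 0.5 CPM. Its call was lost without 6, 7, 8 or 10 h (0.90 to 1.22) and with DESeq2, and that of msd-2 (0.94 ± 0.27) without 8, 9 or 10 h (0.83 to 0.88).

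Among late spe genes spe-51, which encodes a secreted protein of fertilisation, was higher by 0.44 ± 0.10. The vesicle gene spe-39 was lower, at 55.5 against 70.9 CPM at 10 h (-0.16 ± 0.05), and so was spe-48, at 28.7 against 32.0 CPM (-0.18 ± 0.04). The call of spe-39 was lost without 8, 9 or 10 h (-0.16 to -0.11). The small late differences of gsp-3 (0.17 ± 0.05) and gsp-4 (0.18 ± 0.06) were no longer called without 6, 7 or 8 h (0.12 to 0.18 and 0.13 to 0.19), nor was that of spe-26 (0.13 to 0.17) or of sss-1 (0.15 to 0.27). Against WT of 1 hour later 10 sperm genes were called higher late, and without hour as a block 1 was. Other markers moved late as well. Of 10 oocyte markers 7 were lower in xe31 (median -0.47, summed level 1021 to 3350 CPM against 1013 to 4908 CPM in WT), and of 8 germline markers 7 were lower (median -0.15, 1363 to 1700 CPM against 1551 to 1797 CPM). Somatic markers overlapped, at 3556 to 4813 CPM against 3545 to 4803 CPM, and none of these markers was at 0. Their part in the sperm gene differences was not tested.

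The deeper sequencing of the same RNA gave similar medians at 6 h and smaller msp differences at 10 h. At 6 h 68 of 71 sperm genes were higher in xe31, with a median log2 value of 0.34 against 0.31 in the time-course libraries, and at 10 h 56 of 72 were higher, with 0.12 against 0.18. For the msp genes the 10 h median was 0.08 in the deeper libraries and 0.39 in the time-course libraries, and for the spe genes it was 0.09 and 0.03. Single genes moved further at 10 h, with msp-38 at 0.66 in the deeper libraries and 1.20 in the time course, msp-59 at -0.08 and 0.64, and msd-2 at 0.06 and 1.14. The RNA was the same, so this adds reads and no animals.

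In the catalytic-dead strain the sperm genes stood far below WT. Over 72 genes the median log2 difference was -3.26, against 0.09 over all genes, and 69 values were negative. The median was -4.57 for the msp genes (18 of 18 negative), -4.05 for the ssp genes, -3.70 for the nspd genes, -2.78 for gsp-3 and gsp-4, and -1.47 for the spe genes (25 of 28 negative). With 1 residual degree of freedom the test called 1 sperm gene lower, ssp-19 (-6.07 ± 0.71, edgeR adjusted p = 0.048), and 0 higher, where 0.465% of all genes were called lower and 0.697% higher. Below an adjusted p of 0.1 there were 45 sperm genes, 51 were lower and 1 higher at an unadjusted p under 0.05, and DESeq2 called 46 lower and 2 higher. Over all 17212 genes tested, 2912 lay below an adjusted p of 0.1. Of these 17212 genes 1958 were lower and 3124 higher at the unadjusted p, and DESeq2 called 1660 lower and 2100 higher. Against the WT of the time course at the same hours ssp-19 was at -5.38 and not called.

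The gap was wider at 6 h than at 10 h. The msp sum was 204.7 and 254.7 CPM in WT at 6 h and 10 h and 4.15 and 20.0 CPM in the catalytic-dead strain, 49.4-fold and 12.7-fold lower. The spe sum was 1166 and 730.9 CPM in WT and 285.7 and 463.9 CPM, 4.08-fold and 1.58-fold lower. Every catalytic-dead library thus lay below both WT libraries for either family. Per library, the median log2 difference from WT of the same hour was -5.20 at 6 h and -3.75 at 10 h for msp genes, and -2.48 and -0.43 for spe genes.

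Single genes showed the same order. The ssp-19 message stood at 6.22 and 25.6 CPM in WT and 0.1 and 0.342 CPM in the catalytic-dead strain, and msp-33 at 1.21 and 1.27 CPM against 0.017 CPM in both libraries, which is 1 read each. The msp-50 copy stood at 56.8 and 78.9 CPM against 0.800 and 3.42 CPM. The phosphatase gene gsp-3 stood at 166.0 and 115.7 CPM against 11.2 and 38.1 CPM. Among spe genes the myosin VI gene spe-15 stood at 204.0 and 141.6 CPM against 41.4 and 69.1 CPM. All of these had groups that did not overlap. The transcription factor gene spe-44 did overlap, at 53.3 and 24.7 CPM in WT and 23.2 and 40.1 CPM in the catalytic-dead strain, with the higher value at 6 h in WT and at 10 h in the mutant. So did spe-48, at 32.8 and 38.5 CPM against 34.3 CPM in both.

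**Figure D4:**
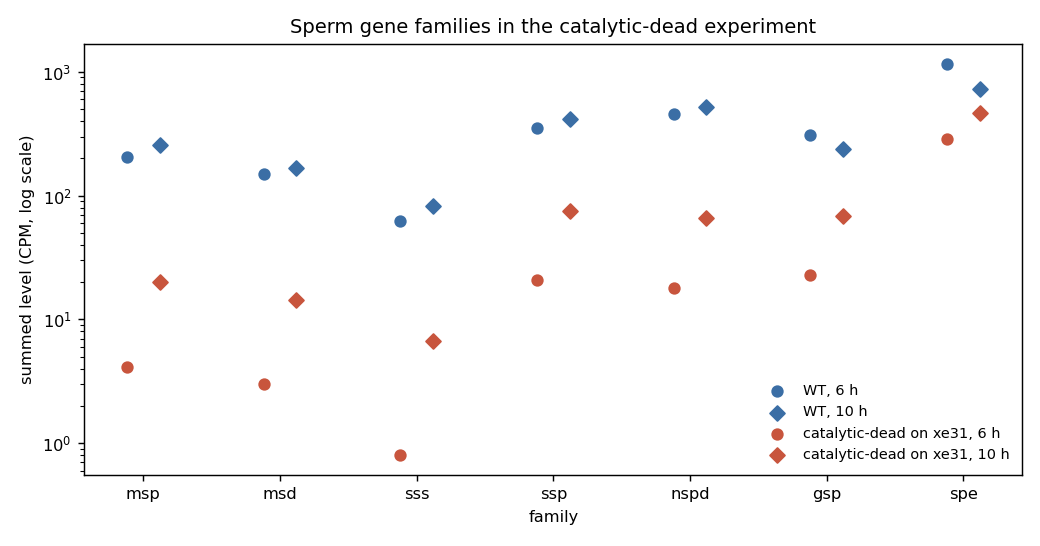
Summed level of each sperm gene family (CPM, log axis) in the 4 libraries of the catalytic-dead experiment, with circles at 6 h, diamonds at 10 h, WT in blue and the catalytic-dead strain in red. The red points lie below the blue points in every family, far apart for msp (4.15 and 20.0 against 204.7 and 254.7 CPM) and closest for spe (285.7 and 463.9 against 1166 and 730.9 CPM).

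Levels in the catalytic-dead strain could be placed on the WT time course as the hour at which each gene first reached the same CPM, scaled here by library totals. Over 67 sperm genes, the 6 h library had a median place of 2.24 h and the 10 h library of 3.73 h. For msp genes the places were 2.03 and 3.59 h, and for spe genes 2.43 and 3.73 h. The WT library of the same experiment at 6 h had a median place of 7.01 h, and that at 10 h of 6.13 h. Genes outside their WT course were kept in the medians, ranked before 0 h or after all hours. In the catalytic-dead libraries at 6 h and 10 h, 3 and 2 genes lay below it and 2 and 5 above. In the WT libraries 0 and 1 lay below and 13 and 11 above. For spe genes the 10 h WT library had a place of 3.60 h, so at 10 h the spe places do not separate the strains. This placement was chosen after the values of the experiment had been seen, and it sets levels across tables that were scaled separately. Markers of other tissues moved too. The oocyte markers summed to 343.6 to 468.0 CPM in the catalytic-dead strain against 1955 to 8502 CPM in WT, and all 10 were lower (median log2 -3.42, 2 called). Germline markers summed to 1338 to 1549 CPM against 1753 to 2130 CPM (median -0.33), somatic markers to 3825 to 4464 CPM against 3133 to 4208 CPM (median 0.33), and none was at 0. Other sperm protein genes had a median of -3.16. The part of developmental stage and germline content in the sperm gene levels was not tested.

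Both RNAi experiments gave small differences for most sperm genes, with lower medians of the msp, ssp and gsp genes in polyA RNA. In rRNA-depleted RNA none of 63 sperm genes was called in either direction, as for all genes (0% higher and 0% lower). Before adjustment 1 gene was lower at p under 0.05, and DESeq2 called 0. The median log2 difference was -0.14 over the sperm genes and 0.03 over all genes. By library the medians were -0.17 and -0.24, with -0.21 and -0.52 for msp genes and -0.24 and 0.19 for spe genes. The summed msp level was 55.0 CPM in the mock library and 44.5 and 34 CPM in the RNAi libraries, both lower, and the summed spe level was 647.9 CPM against 613.3 and 676.6 CPM, on either side of the mock value.

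The polyA pair, with 1 library per treatment, has no replicate check and no test. Of 63 sperm genes with at least 100 counts in the pair together 3 were over 2-fold higher after xrn-2 RNAi and 3 over 2-fold lower, where 25.4% of all genes were over 2-fold higher and 7.23% lower. The median log2 ratio was 0.09 over the sperm genes and 0.37 over all genes. It was -0.67 for 15 msp genes, of which 1 was positive, -0.62 for ssp genes, 0.33 for nspd genes and 0.43 for 27 spe genes, of which 20 were positive. Over all genes 9539 of 13970 ratios were positive. Scaling by TMM in place of library totals lowered each ratio by the same amount, which took the median of all genes from 0.37 to -0.02. On that scale 1 sperm gene was over 2-fold higher and 14 over 2-fold lower, where 16.9% of all genes were higher and 11.6% lower. The medians were then -0.30 for all sperm genes, -1.06 for msp, 0.05 for spe and -0.06 for nspd genes, below 0 for nspd and for all sperm genes through the scaling alone. The summed msp level was 217.4 CPM in the mock and 141.8 CPM in the RNAi library. The gsp-3 message stood at 155.5 against 104.6 CPM (log2 -0.57, 95% interval -0.63 to -0.52 for counting error) and gsp-4 at 141.4 against 87.1 CPM (-0.70, -0.76 to -0.64). Oocyte markers were lower in the same library, at 416.1 against 1982 CPM summed, with 8 of 10 over 2-fold lower, and germline markers stood at 1223 against 1760 CPM. Their part was not tested.

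Against its family, spe-49 stood above WT or mock in the catalytic-dead and RNAi experiments. Its product belongs with SPE-42 to the membrane proteins of fertilisation. In the time course spe-49 stood at 0.620, 1.66, 3.56, 8.34, 13.7, 19.7, 19.3, 19.9, 16.3, 12.6 and 8.48 CPM in WT at 0 to 10 h. In xe31 it stood at 1.34, 4.38, 8.17, 13.7, 17.6, 21.1, 21.3, 20.1, 16.7, 13.9 and 12.7 CPM. It was higher in xe31 in all 11 hours, by a log2 difference of 1.25 ± 0.16 in the early hours (edgeR adjusted p = 0.00044) and 0.18 in the late hours, where it was not called. The difference of spe-49 was wider in the catalytic-dead strain, at 49.3 and 60.5 CPM against 21.7 and 5.09 CPM in WT (2.38 ± 0.74, not called, called by DESeq2). After RNAi it stood at 14.9 and 28.0 CPM against 9.19 CPM in rRNA-depleted RNA (1.22 ± 0.53, not called) and at 19.5 against 8.42 CPM in polyA RNA (1.21, 1.03 to 1.41). Every library with lowered or altered xrn-2 lay above its control of the same hour or treatment.

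Also over 2-fold higher in polyA RNA was spe-38, a tetraspan protein gene of fertilisation, at 6.75 against 2.91 CPM (1.21, 0.89 to 1.55), and it stood at 1.34 and 2.49 CPM against 1.85 CPM in rRNA-depleted RNA. In rRNA-depleted RNA spe-51 stood at 10.1 and 6.47 CPM against 3.90 CPM (1.08 ± 0.52, not called).

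The opposite case was ssp-37. It stood at 5.57 CPM in the polyA mock library (203 counts) and 0.336 CPM after RNAi (15 counts), a log2 ratio of -3.96 (-4.91 to -3.29). In rRNA-depleted RNA it stood at 2.93 CPM in the mock and 0.837 and 0.201 CPM in the RNAi libraries (-2.49 ± 0.91, not called). In the catalytic-dead experiment it stood at 5.64 and 9.86 CPM in WT and 4.12 and 5.19 CPM in the mutant. In xe31 at 10 h it equalled WT, at 11.2 CPM in both. The other genes over 2-fold lower in polyA RNA were msp-63 (-1.35, -1.99 to -0.77, 74 against 35 counts) and msp-76 (-1.05, -1.21 to -0.89).

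**Figure D5:**
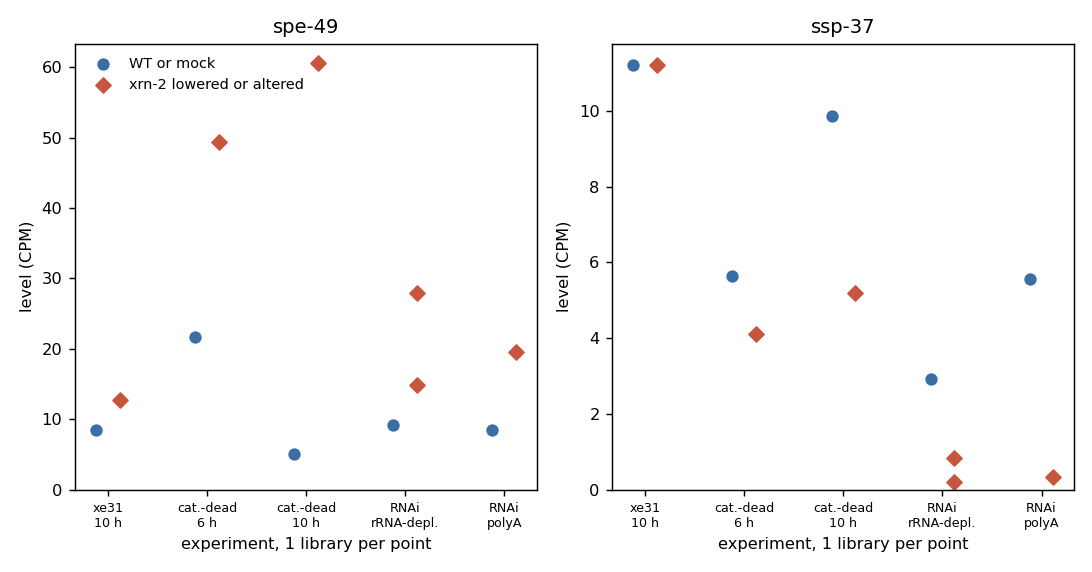
Level in CPM of spe-49 and ssp-37, with 1 library per point, in WT or mock libraries (blue circles) and in the libraries with lowered or altered xrn-2 (red diamonds) of each experiment. For spe-49 every red point lies above its blue partner, for example 60.5 against 5.09 CPM in the catalytic-dead experiment at 10 h, while for ssp-37 the RNAi points lie below (0.336 against 5.57 CPM in polyA RNA).

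Readthrough, the reads in a window downstream of a gene relative to those in the gene, could be tested for 52 sperm genes. In late xe31 it was higher for 26 and lower for 3, where 48.1% of all genes were called higher and 2.45% lower, so the sperm genes lay near the background. Their median log2 difference was 1.02, against 1.07 over all genes. Of 17 spe genes 8 were higher, of 12 msp genes 7 were higher and 1 lower, of 8 nspd genes 4 were higher, and of 10 ssp genes 4 were higher and 2 lower. In the early hours 0 of 52 were called (0.87% and 0.071% of all genes). Before adjustment 2 were higher and 7 lower at p under 0.05 in edgeR, beside 638 higher and 241 lower of all 11263 genes. No further tool was applied. In the middle hours 2 were higher and 1 lower (4.63% and 0.391%). Set against the reads of a window upstream of the gene in place of the gene's own reads, 7 sperm genes could be tested late, of which 5 were higher and 1 lower, where 33.7% of all genes were higher and 14.1% lower.

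For spe-49 the downstream counts went from 13 to 421 in late xe31 (log2 4.53 ± 0.41), and in the catalytic-dead experiment from 7 and 0 in WT to 1271 and 1498. Its upstream window also held more reads, 491 and 436 counts in the catalytic-dead libraries against 2 and 1 in WT. In the time course at 10 h that window held 53 counts in xe31 and 4 in WT. Whether reads from outside spe-49 entered its gene counts was not tested. For ssp-37 the upstream window of the catalytic-dead libraries held 430 and 425 counts against 0 and 1 in WT. Other wide differences were those of sss-1 (1 to 44 counts), ssp-33 (2 to 92) and spe-11 (9 to 217, log2 4.19 ± 0.52; 0.94 and not called against upstream reads). Readthrough was lower for msp-63 (-1.04 ± 0.31), ssp-19 (-1.18 ± 0.48) and ssp-31 (-0.43 ± 0.17). The msp-63 window held more counts than the gene (349 against 100 in WT). The call of ssp-19 was lost without 6, 7, 8 or 9 h (-1.27 to -0.68) and that of ssp-31 without any of the 5 hours (-0.46 to -0.38).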

How the data were processed

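The authors deposited raw counts for each library, per the file headers: one table of genes and one of downstream and upstream windows per experiment. The genome build was ce10, per the submitters' processing notes. Per the labels' protocols, libraries were made with TruSeq Standard mRNA (polyA) or NuGEN Ovation Universal kits. The sources used here do not give the aligner, strand setting or window lengths. Overlapping, antisense and near-identical genes could therefore not be separated. The sources of symbols covered 42362 of 44200 gene IDs (95.8%). Window tables held 70 of the sperm genes in the time course, 22 in the rRNA-depleted and 71 in the polyA experiment. Columns of the resequenced and catalytic-dead experiments were matched by strain and hour within the table that each sample's description names. A further 4 gene columns and 8 window columns of the polyA experiment match no sample analysed here and were not used. The 16 chromatin immunoprecipitation and input libraries were not analysed here.

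Gene counts were fitted with edgeR 4.0.16 in R 4.3.3 (quasi-likelihood test, TMM, filterByExpr at a minimum count of 10, Benjamini-Hochberg adjustment over all genes tested, threshold 0.05), with DESeq2 1.42.0 as an alternative. Time-course hours were blocked and the strain effect was estimated per window of hours, leaving 8 residual degrees of freedom. Changes within a strain came from a fit of strain by window with 16. The catalytic-dead (hour block) and rRNA-depleted fits had 1. CPM values are TMM-scaled, except in the polyA pair and in the placement on the WT course, both scaled by library totals. Log2 ratios of the polyA pair used pseudocount 1 and exact binomial 95% intervals for counting error. The time lead was the shift, within 4 h in steps of 0.1 h, that gave the smallest mean squared difference of log2 CPM (prior count 1, at least 6 shared hours), for genes with at least 20 counts per library and a WT log2 range of at least 1. Readthrough was the change of downstream relative to gene counts. It was tested where a gene's downstream counts summed to 20 or more and its own counts averaged 10 or more. No label says that libraries of neighbouring hours came from separate cultures, so p-values reflect the spread among libraries alone. Each fit was tested on simulated data.

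The sperm genes, the marker lists and the tests were chosen with earlier results of these data known. Named genes were gsp-3, gsp-4, spe genes with a well-known role, the highest- and lowest-counted gene and the widest called differences of each family, genes called against their family, and the 3 widest differences each way in the small experiments. Genes named beside these (spe-43, spe-46 to spe-54 and those of the marker lists) were chosen after their values were seen. Values of a few spe genes are not reported singly here. Alternatives comprised other scalings, no filter, no hour block, WT shifted by 1 hour, other readthrough references and each hour left out in turn.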

Additional observations from a re-analysis of the deposited data

Results flagged for a closer look

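The xe31 effect on 28 of the 72 sperm genes was lower in the late than in the early hours by a direct test of that difference in edgeR. For the phosphatase genes the late effect was lower than the early one by log2 -0.82 (gsp-3) and -0.90 (gsp-4). The fibrous-body gene spe-18 differed by -0.83 and the transcription factor gene spe-44 by -0.74. The fertilisation genes spe-9 and spe-49 differed by -1.13 and -1.07, the paternal factor gene spe-11 by -1.01 and the activation gene spe-43 by -1.63. In the other families ssp-33 differed by -1.95, nspd-1 by -1.09 and msd-4 by -0.93. Without the 1 h libraries the value for ssp-33 was -1.69 and it was no longer called. The cause was not tested.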

How the results depend on the processing

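Of the summary values 234 stayed the same under the other settings, 72 moved and 3 reversed, and the exceptions follow. Counts were compared by their fold change. Medians were compared by the spread of the hourly medians, the counting error (polyA pair) or the step of the lead. For named genes 672 of 856 values stayed the same, 132 lost and 22 gained a call, 5 moved and 25 reversed, and the cause was not tested. Values called under neither setting counted as the same, whatever their direction. No paired analysis was possible by labelled replicate number because the RNAi groups compared share fewer than 2 such numbers. The strains were paired by hour, which was the block in the time-course and catalytic-dead fits.

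Against WT of 1 hour later the early comparison gave 1 sperm gene higher and 7 lower (median -0.33), the middle one 0 higher and 1 lower (median -0.28) and the late one 10 higher. Early values then reversed for gsp-3 (-0.36), gsp-4 (-0.34), spe-4 (-0.23), spe-6 (-0.13), spe-8 (-0.34), spe-10 (-0.32), spe-11 (-0.20), spe-18 (-0.35), spe-26 (-0.31), spe-41 (-0.26), spe-44 (-0.080), msd-4 (-0.69), nspd-1 (-0.45) and sss-1 (-0.59). Middle values reversed for gsp-3 (-0.091), gsp-4 (-0.10), spe-11 (-0.18), msp-142 (-0.29), ssp-34 (-0.39), ssp-37 (-1.56) and nspd-10 (-0.44), and late ones for spe-44 (0.38), ssp-19 (-0.0055) and sss-1 (-0.075). Against WT of 1 hour earlier the early median was 2.25, 59 sperm genes were higher in the middle hours (median 1.58), 1 was lower late (median 0.45), and the late value of spe-39 was 0.0076. Without the hour block 0 were higher early, 0 in the middle, 1 late, and 0 lower late.

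With no filter the WT course median was 5.17. The 1 sperm gene falling in xe31 was not called with DESeq2, RLE or no filter (0 each). In the catalytic-dead strain DESeq2 called 46 lower and 2 higher (1660 and 2100 over all genes). RLE called 26 lower, no filter 22 and no hour block 32, and the time-course WT 0. With upstream reads as reference late readthrough was higher for 5 of 7 and lower for 1 (median 2.59, against 0.56 over all genes) and early lower for 1 of 7 (median -0.20; 0.353% of all genes lower). In the polyA pair a pseudocount of 5 moved the msp median to -0.66, and a minimum of 20 counts gave 0.069 for all sperm genes, -0.64 for msp and 0.45 for spe. TMM scaling gave 1 higher and 14 lower, with -0.30, -1.06 and 0.046. The lead with prior count 5 was 0.5 h (msp) and 0.7 h (spe), and by library totals 0.7 h over all sperm genes. TMM-scaled places on the WT course, an alternative chosen after seeing the data, were 2.13 and 3.40 h.

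With each hour or library left out in turn, the early comparison called 21 to 30 higher (median 0.78 to 0.98), the middle one 23 to 32 (0.41 to 0.55), the late one 18 to 25 higher and 1 to 2 lower (0.17 to 0.28), and the late minus early test 20 to 30 lower (-0.80 to -0.60). The WT course had 69 to 70 rising (5.08 to 6.34) and the xe31 course 68 to 70 rising and 0 to 1 falling (4.52 to 5.59). The catalytic-dead median was -4.13 to -2.38 and the rRNA-depleted one -0.24 to -0.17. Late readthrough was higher for 22 to 27 and lower for 0 to 2 (0.81 to 1.35), early for 0 (-0.79 to -0.41). The lead was 0.6 to 0.7 h, 0.5 to 0.6 h for msp and 0.7 to 0.8 h for spe genes. Depth limits the msp genes most, since 7 of 22 with any count in the time course had under 20 counts per library.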
